A study of Arabidopsis thaliana with 8 samples.

Results

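The miRNAs described here are the mature miRNAs of 16 families that are conserved between plants and whose targets are mostly transcription factors of development: miR156, miR157, miR159, miR160, miR164, miR165, miR166, miR167, miR169, miR170, miR171, miR172, miR319, miR393, miR394 and miR396. They were chosen by family number alone, whatever the letter and the arm, which gave 103 of the 427 miRNA entries in the small RNA tables. The targets of miR393 and miR394 are F-box proteins and not transcription factors. The study set inflorescences of janus-2 against those of Col-0, the wild-type Arabidopsis accession, with 2 small RNA libraries and 2 mRNA libraries per genotype (8 libraries in all). janus-2 is a hypomorphic allele of JANUS made with CRISPR/Cas9, a small deletion in an exon, in the Col-0 background and backcrossed to Col-0 to remove the transgene. It is a single allele, the plants are sterile, and the labels of the libraries call the genotype janus without naming the allele. All plants were untreated and grown in 16 h of light per day at 22 °C. The age of the plants was not given in the sources used here.

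In plants, a MIR gene is transcribed into a long precursor that folds into a hairpin, and DICER-LIKE 1 cuts from it a duplex of the mature miRNA and the strand opposite to it. The strand that is loaded into ARGONAUTE1 and finds the target is called the guide arm below, and the opposite strand, which is usually degraded, the other arm. A name ending in 5p or 3p tells from which side of the hairpin a strand comes. The guide is the 5p arm in most of these families and the 3p arm in miR159, miR165, miR166, miR170, miR171, miR172 and miR319, and an entry with no arm in its name was taken as the guide. In flowers these families set the timing of phase change and flowering (miR156, miR172), organ polarity (miR165, miR166), organ boundaries (miR164), auxin response (miR160, miR167, miR393), meristem maintenance (miR171, miR394), anther development (miR159) and cell proliferation (miR319, miR396).

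Some of these miRNAs have primers for RT-qPCR in the study, and the primers are shown because they carry bases that match or complement a mature strand. The stem-loop primer starts reverse transcription at the 3′ end of the mature miRNA, to which its last 6 bases, in capitals, are complementary, and the forward primer covers the 5′ part of the miRNA. No arm is given in the primer table, so that a primer pair need not be that of the guide arm. The sequences are those of the oligos as listed there.

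miR156d stem-loop primer: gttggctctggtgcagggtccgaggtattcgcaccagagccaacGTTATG

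miR160a stem-loop primer: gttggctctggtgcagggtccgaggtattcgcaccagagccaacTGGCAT

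miR167a stem-loop primer: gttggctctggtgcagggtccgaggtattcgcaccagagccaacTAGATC

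miR172a stem-loop primer: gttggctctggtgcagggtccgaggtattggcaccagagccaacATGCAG

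miR156d forward primer: cggcgggctcactctcttttt

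miR160a forward primer: cctagcatgcctggctccctgt

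miR167a forward primer: ggcgtctgaagctgccagcat

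miR172a forward primer: ggcgtcagaatcttgatg

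JANUS mRNA, the check of the genotype, had 18.3 and 19.4 CPM (counts scaled to library size) in the janus-2 libraries, against 54.9 and 54.2 CPM in the Col-0 libraries. Counts on miRNAs summed to 1950664 to 2160372 per small RNA library and counts on genes to 56360882 to 65578130 per mRNA library. Levels are CPM scaled by TMM, a standard error (SE) after a log2 fold change is that of DESeq2, and 3 counts correspond to 1.28 to 1.65 CPM in the small RNA libraries. Markers of the tissue were present, with floral identity genes summing to 809.7 and 807.7 CPM in janus-2 and to 1088 and 1085 CPM in Col-0. Of these 8 genes 3 (PI, AP3 and SEP2) were called lower in janus-2 and 0 higher. Of 8 ovule and carpel markers 3 were called lower and 1 higher, where 27.2% of all tested genes were lower and 18.5% higher. All 12 pollen markers were lower in janus-2, with sums of 67.7 and 71.3 CPM against 4145 and 4143 CPM in Col-0, and none of them was at 0 in both janus-2 libraries. All 17 tapetum markers were also lower, with sums of 169.6 and 171.7 CPM in janus-2 against 3124 and 3075 CPM in Col-0. In such bulk samples fewer cells of a type and less RNA per cell cannot be told apart, and the part of this difference in the miRNA and target values below was not tested.

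Of the 103 entries, 94 passed the filter on low counts. With edgeR's quasi-likelihood test and Benjamini-Hochberg adjustment over all 304 miRNAs tested, 11 of the 94 were lower in janus-2 and 11 higher with adjusted values up to 0.05 taken as calls, and 72 were not called. Over all tested miRNAs 14.1% were lower and 18.1% were higher. Both janus-2 libraries lay below both Col-0 libraries in 30 of the 94 entries and above them in 28, against 29.3% and 38.5% of all tested miRNAs. The median log2 fold change was 0.028 for the 94 entries and 0.11 for all tested miRNAs, and the values ran from -2.94 to 3.30. Neither share of calls was above that of the whole table.

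The calls were also counted by arm. Among the 63 tested guide entries 4 (6.35%) were lower and 7 (11.1%) were higher, with a median log2 fold change of 0.033. Among the 31 tested entries of the other arm 7 (22.6%) were lower and 4 (12.9%) were higher, with a median of -0.37. Of all tested miRNAs 14.1% were lower and 18.1% higher. miR156a-3p, among the 7 lower entries of the other arm, passed the filter on low counts through the Col-0 libraries alone. All 7 guide entries that were higher are miR166 entries that share their reads, and the difference between the arms was not tested, since entries of a hairpin and of a family are not replicates.

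**Figure D1:**
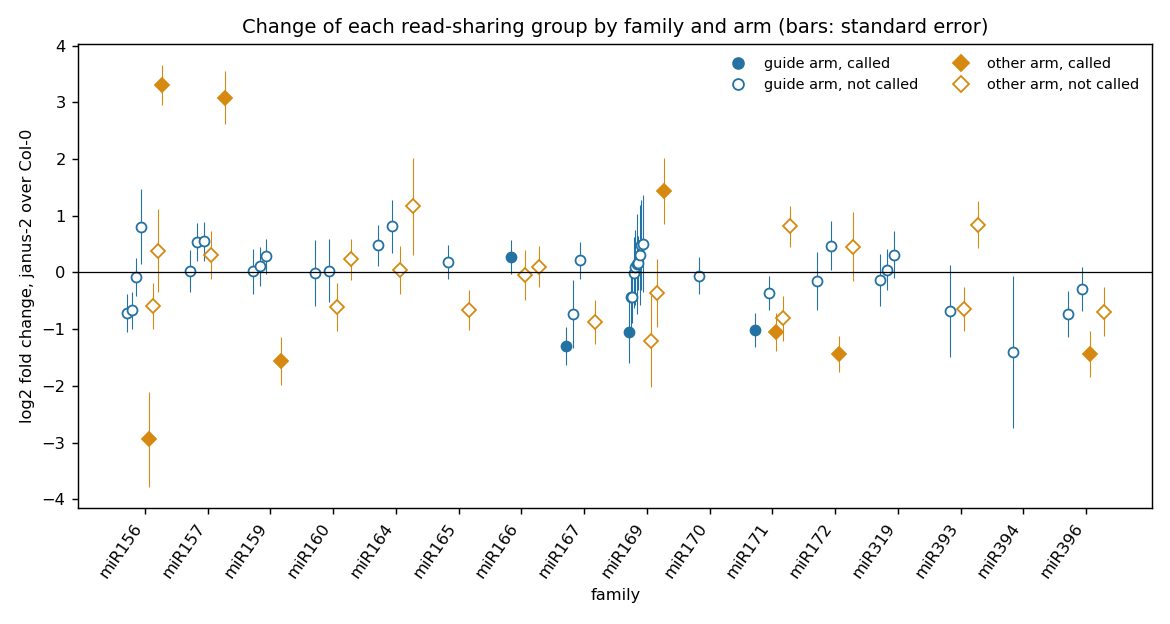
Log2 fold change of janus-2 over Col-0 (vertical axis) for each group of entries that share reads, by family (horizontal axis), with the guide arm as circles and the other arm as diamonds, filled where called, and bars of 1 standard error. Values beyond 2 on either side belong to the other arm, in miR156 and miR157, and the group of miR170-5p stands under miR171, whose miR171a-5p shares its reads.

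Mature miRNAs of a family can be identical or nearly so, and a read is then counted in each entry. Entries whose counts lay within 10% of each other in all 4 libraries were therefore also taken as 1 group, which left 68 groups from the 94 entries. Of these 68 groups 8 were lower in janus-2 and 4 higher, with 15.7% lower and 15.4% higher over the 254 groups of the whole table. On the guide arm 3 of 41 groups were lower (7.32%) and 1 was higher (2.44%). On the other arm 5 of 27 groups were lower (18.5%) and 3 were higher (11.1%). The families hold most of the miRNA counts, with 66.9% and 64.0% in janus-2 and 74.1% and 74.4% in Col-0 when 1 entry per group is counted. The miR166 guide group alone took 30.1% and 27.5% in janus-2 and 24.3% and 26.7% in Col-0.

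The scaling of the libraries bears on the split between lower and higher. Under TMM it was 11 lower and 11 higher, and it was 11 and 4 with DESeq2's size factors, 13 and 4 with the totals of the miRNA tables, 21 and 4 with upper-quartile factors, and 33 and 4 with all aligned reads as library sizes. Over all tested miRNAs the median value was 0.11 with TMM, 0.023 with DESeq2's size factors, -0.070 with the table totals, and -0.23 with upper-quartile factors and with all aligned reads. Against those medians, the median of the 94 entries was 0.028, -0.075, -0.16, -0.33 and -0.36 in the same order. All 11 entries called lower under TMM remained so under the other 4 scalings, as did 4 of the 11 called higher, and the 7 that did not are those of miR166.

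**Figure D2:**
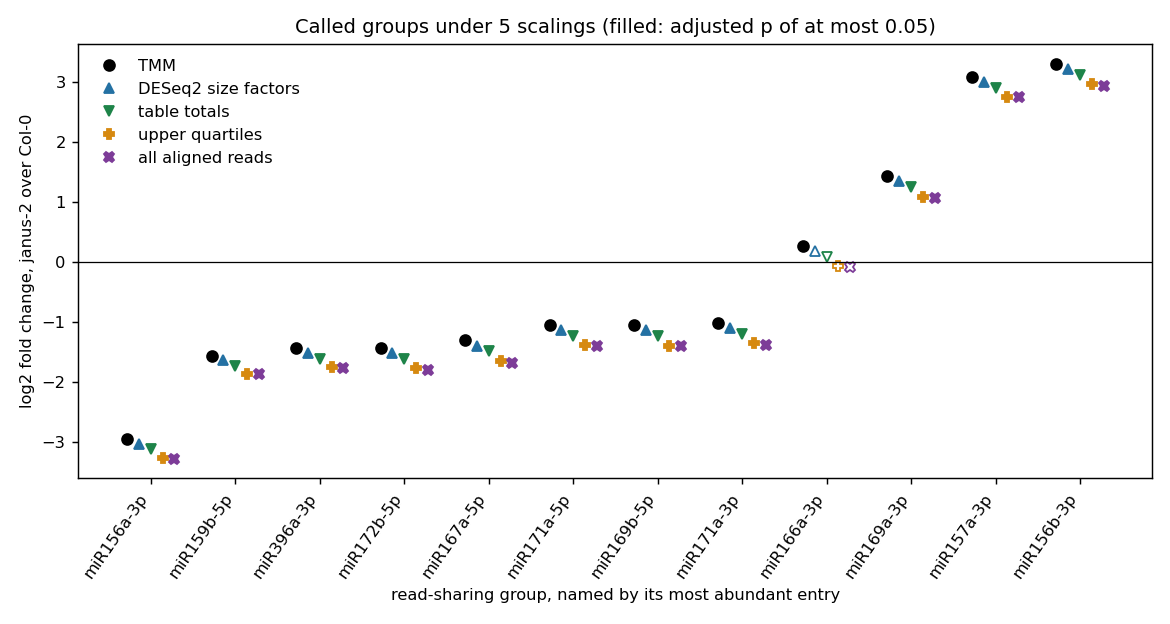
Log2 fold change of janus-2 over Col-0 (vertical axis) of the 12 called groups (horizontal axis) under 5 scalings, with filled symbols at an adjusted p of at most 0.05. The miR166 guide group lies between -0.086 and 0.27 and is filled under TMM only, while the other 11 groups keep their side of 0 and their call.

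The families differed widely in the level of their guide arm. In Col-0 the most abundant guide entries were miR166a-3p with 84928 ± 4310 CPM (SD, n = 2), miR167a-5p with 32497 ± 3577 CPM, miR171a-3p with 25282 ± 807 CPM, miR165b with 24855 ± 900.5 CPM and miR159a with 19967 ± 40.2 CPM. At the low end stood miR172c with 64.3 ± 13.2 CPM, miR169c with 51.3 ± 14.6 CPM and miR393a-5p with 15.2 ± 13.6 CPM. In janus-2 miR166a-3p was again first, with 102350 ± 2455 CPM, and miR165b (28190 ± 207 CPM) and miR159a (24310 ± 1839 CPM) came before miR167a-5p (13202 ± 2442 CPM) and miR171a-3p (12523 ± 443 CPM). In Col-0 miR171a-3p and miR165b did not differ beyond their spread, and in janus-2 miR167a-5p and miR171a-3p did not.

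**Figure D3:**
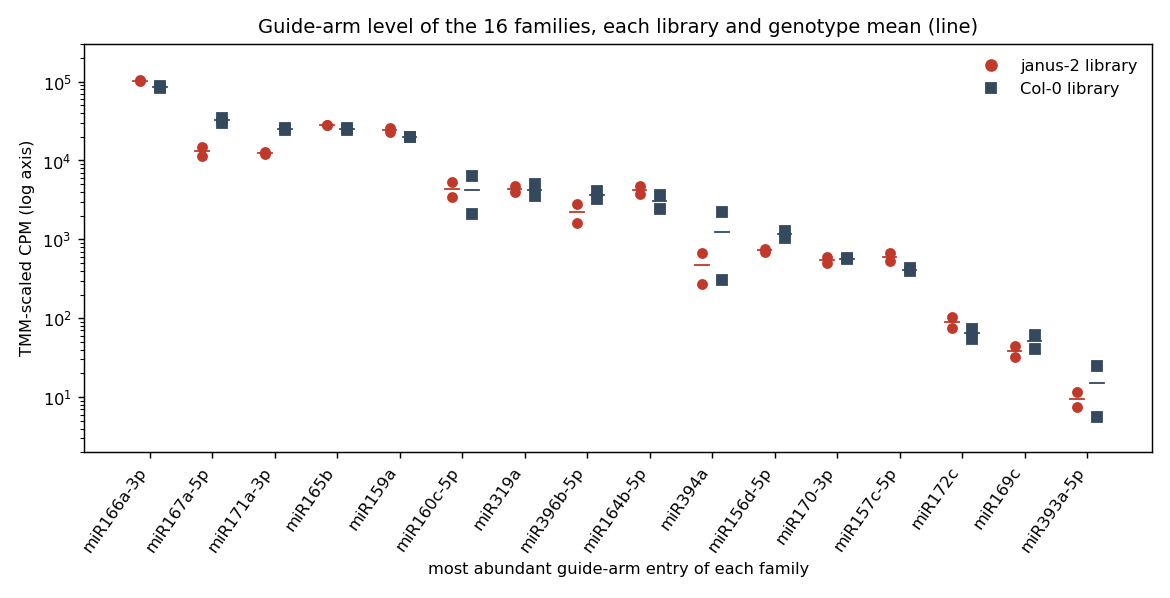
TMM-scaled CPM on a log axis (vertical) of the most abundant guide entry of each of the 16 families (horizontal, in the order of the Col-0 mean), with a symbol per library, janus-2 left of Col-0, and a line at each mean. The janus-2 symbols of miR167a-5p and miR171a-3p lie below those of Col-0, and the 2 Col-0 symbols of miR394a, miR160c-5p and miR393a-5p lie far apart.

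miR156 and miR157 are near-identical families that repress SPL transcription factors and hold plants in the juvenile phase. Their guide arms were not called. The guide shared by miR156a, miR156b, miR156c, miR156e and miR156f had 595 and 535 CPM in janus-2 against 814 and 1036 CPM in Col-0, and miR156d-5p had 762 and 697 CPM against 1031 and 1284 CPM. Their log2 fold changes were -0.71 ± 0.33 (SE, edgeR adjusted p = 0.147) and -0.67 ± 0.32 (SE, edgeR adjusted p = 0.152), with both janus-2 libraries below both Col-0 libraries, and miR156d-5p was called lower only with all aligned reads (-1.01, adjusted p = 0.0395 from edgeR). miR157c-5p had 675 and 537 CPM in janus-2 against 397 and 432 CPM in Col-0, a log2 fold change of 0.55 ± 0.34 (SE, edgeR adjusted p = 0.268).

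The other arms of these 2 families held the greatest changes of all 94 entries, in both directions. miR156b-3p had 473 and 429 CPM in janus-2 against 48.4 and 42.9 CPM in Col-0, a log2 fold change of 3.30 ± 0.35 (SE, edgeR adjusted p = 0.000170). miR157a-3p and miR157b-3p, whose counts are identical, had 79.1 and 73.6 CPM in janus-2 against 7.28 and 10.7 CPM in Col-0, a log2 fold change of 3.08 ± 0.47 (SE, edgeR adjusted p = 0.000170). In both cases the janus-2 libraries were close to each other and well above the Col-0 libraries. miR156a-3p moved the opposite way, with 3 and 4 counts in janus-2 against 28 and 37 counts in Col-0 (1.51 and 2.20 CPM against 12.0 and 17.2 CPM), a log2 fold change of -2.94 ± 0.84 (SE, edgeR adjusted p = 0.00161). This entry passed the filter on low counts through the Col-0 libraries alone, where it was high. These 3 calls held in all 12 alternative settings. miR156d-3p (53.4 and 41.2 CPM in janus-2 against 72.8 and 70.4 CPM in Col-0), miR156c-3p and miR157c-3p were not called.

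miR159 represses GAMYB-like transcription factors of the anther, and miR319, close to it in sequence, represses TCP factors of leaf and petal growth. The abundant guide miR159a had 25610 and 23010 CPM in janus-2 against 19996 and 19939 CPM in Col-0, a log2 fold change of 0.28 ± 0.31 (SE, edgeR adjusted p = 0.147). It was called higher once entries with identical counts were collapsed, at an adjusted p of 0.0127 from edgeR, and had the opposite sign with upper-quartile factors (-0.048) and all aligned reads (-0.076). miR159b-5p, the other arm, was lower, with 467 and 406 CPM in janus-2 against 874 and 1705 CPM in Col-0, a log2 fold change of -1.56 ± 0.42 (SE, edgeR adjusted p = 0.0164). Both janus-2 libraries lay below the lower Col-0 library, and the call held in all 12 alternative settings. miR159b-3p (0.11), the guide on the same hairpin, and miR159c (0.023) were not called, nor were miR319a (0.049), miR319b (0.31) and miR319c (-0.14), whose janus-2 libraries lay within the range of the Col-0 libraries or overlapped it.

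miR167, which represses ARF6 and ARF8, the auxin response factors of ovule and anther growth, was lower on its most abundant guide. miR167a-5p had 11476 and 14929 CPM in janus-2 against 35026 and 29968 CPM in Col-0, a log2 fold change of -1.30 ± 0.33 (SE, edgeR adjusted p = 0.000386), and miR167b, which shares its reads, had the same value. Both janus-2 libraries lay far below both Col-0 libraries, and the call held in all 12 alternative settings. miR167d, a guide of its own with 678 and 802 CPM in janus-2 against 682 and 593 CPM in Col-0, was not called (0.21, adjusted p = 0.653 from edgeR), nor was miR167c-5p (-0.73). The other arm miR167a-3p had 403 and 256 CPM in janus-2 against 601 and 603 CPM in Col-0, which passed the threshold only with upper-quartile factors (-1.18) and all aligned reads (-1.22), against -0.87 with TMM.

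miR160 and miR393, the other auxin families (of ARF repressors and of auxin receptors), were marked by the distance between the Col-0 libraries. miR160a-5p had 3445 and 5258 CPM in janus-2 against 6436 and 2071 CPM in Col-0, and miR160c-5p shares its reads. Its log2 fold change was 0.033 ± 0.56 (SE, edgeR adjusted p = 0.966), and 1.08 (adjusted p = 0.00105 from edgeR) without Col-0 replicate 1. miR393a-5p and miR393b-5p had identical counts, with 7.56 and 11.5 CPM in janus-2 against 24.8 and 5.59 CPM in Col-0. The value of -0.69 ± 0.81 (SE, edgeR adjusted p = 0.457) became 0.77 without Col-0 replicate 1 and -1.42 (adjusted p = 0.00620 from edgeR) without Col-0 replicate 2. The other arms were more abundant than this guide, with miR393b-3p at 96.7 and 66.5 CPM in janus-2 against 123 and 132 CPM in Col-0, and miR393a-3p at 60.5 and 52.7 CPM against 30.4 and 32.6 CPM, and neither was called (-0.64 and 0.84, adjusted p = 0.176 and 0.0526 from edgeR). With all aligned reads, miR393b-3p (-0.993, adjusted p = 0.0285 from edgeR) and miR393a-5p (-1.11, adjusted p = 0.0442 from edgeR) passed the threshold.

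miR164 represses the CUC and other NAC factors that set organ boundaries. miR164b-5p had 3729 and 4809 CPM in janus-2 against 2448 and 3692 CPM in Col-0, a log2 fold change of 0.48 ± 0.36 (SE, edgeR adjusted p = 0.237), which passed the threshold without Col-0 replicate 2 (0.76, adjusted p = 0.0393 from edgeR). miR164c-5p (0.81) and both other-arm entries (0.037 and 1.16) were not called.

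miR165 and miR166 differ in few bases and repress the HD-ZIP III factors of the upper side of organs. miR166a-3p, the most abundant entry of the table, had 104080 and 100610 CPM in janus-2 against 81880 and 87975 CPM in Col-0, a log2 fold change of 0.27 ± 0.30 (SE, edgeR adjusted p = 0.0346). Its 6 companions, miR166b-3p, miR166c, miR166d, miR166e-3p, miR166f and miR166g, had log2 fold changes of up to 0.28. These 7 calls rest on the scaling and on single libraries, since miR166a-3p was not called in 9 of the 12 alternatives. Its value was 0.18 with DESeq2's size factors and 0.18 (adjusted p = 0.762) in DESeq2's own test, 0.086 with the table totals, -0.065 with upper-quartile factors and -0.086 with all aligned reads. It was 0.22 without janus-2 replicate 1, 0.27 without janus-2 replicate 2 and 0.23 without Col-0 replicate 1, none past the threshold. miR165b had 28043 and 28336 CPM in janus-2 against 24218 and 25492 CPM in Col-0 (0.18, adjusted p = 0.308 from edgeR, and 0.29, adjusted p = 0.0242, with identical entries collapsed). The other arms miR166a-5p (0.10), miR166e-5p (-0.041) and miR165a-5p (-0.67) were not called, the last passing the threshold without Col-0 replicate 1 (-0.91, adjusted p = 0.0387 from edgeR) and with all aligned reads (-0.998, adjusted p = 0.0408 from edgeR).

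miR170 and miR171 repress the HAIRY MERISTEM factors that keep shoot meristems undifferentiated. miR171a-3p, the most abundant of them, was lower, with 12210 and 12836 CPM in janus-2 against 25853 and 24712 CPM in Col-0, a log2 fold change of -1.01 ± 0.30 (SE, edgeR adjusted p = 0.000532), in all 12 alternative settings as well. The genotypes did not overlap. miR171b-3p, which shares its reads with miR171c-3p, had 9757 and 10539 CPM in janus-2 against 12958 and 13063 CPM in Col-0 (-0.36, adjusted p = 0.136 from edgeR), and miR170-3p had 590 and 500.0 CPM against 559 and 576 CPM (-0.058). On the other arm, miR171a-5p and miR170-5p share their reads and were lower, with 1922 and 1579 CPM of miR171a-5p in janus-2 against 3337 and 3930 CPM in Col-0, a log2 fold change of -1.05 ± 0.33 (SE, edgeR adjusted p = 0.0162). That call was lost without janus-2 replicate 2 (-0.94, adjusted p = 0.115 from edgeR). miR171b-5p (-0.81) and miR171c-5p (0.81) went opposite ways and were not called.

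miR172 acts opposite to miR156 in time and represses AP2 and its relatives, but its guide arm was scarce in these libraries. miR172c had 104 and 74.2 CPM in janus-2 against 73.6 and 55.01 CPM in Col-0 (0.47, adjusted p = 0.324 from edgeR), and miR172a had 26.7 and 17.03 CPM against 24.4 and 24.2 CPM. The 5p arm was far more abundant and was lower, with 1125 and 1022 CPM of miR172b-5p in janus-2 against 2939 and 2849 CPM in Col-0, a log2 fold change of -1.43 ± 0.32 (SE, edgeR adjusted p = 0.00395). miR172e-5p, within 10% of it in counts, had -1.44 (adjusted p = 0.00415 from edgeR), and the call of miR172b-5p held in all 12 alternative settings. miR172d-5p was not called (0.45).

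miR169, the family with most entries here (18, of which 15 were tested), represses NF-YA subunits of the CCAAT-binding factor and was scarce, with at most 61.6 CPM (144 counts) for any entry in a library. Its most abundant guide, miR169c, had 32.2 and 44.0 CPM in janus-2 against 61.6 and 41.0 CPM in Col-0 (-0.43, adjusted p = 0.368 from edgeR). miR169a-3p was higher, with 21.2 and 23.6 CPM in janus-2 against 9.42 and 6.99 CPM in Col-0, a log2 fold change of 1.44 ± 0.57 (SE, edgeR adjusted p = 0.0136). It was not called in DESeq2's test (1.35, adjusted p = 0.0672) or without janus-2 replicate 2 (1.33, adjusted p = 0.0842 from edgeR). miR169b-5p was lower, with 18 and 22 counts in janus-2 against 50 and 48 counts in Col-0, a log2 fold change of -1.05 ± 0.55 (SE, edgeR adjusted p = 0.0423). That call was lost in 7 of the 12 alternatives, DESeq2's test among them (adjusted p = 0.114). Leaving out janus-2 replicate 1 (-0.88, adjusted p = 0.303 from edgeR), janus-2 replicate 2 (-1.29, adjusted p = 0.114) or Col-0 replicate 1 (-1.07, adjusted p = 0.0556) also ended it. miR169g-3p had 20.7 and 4.40 CPM in janus-2 against 14.1 and 44.8 CPM in Col-0 (-1.20, adjusted p = 0.213 from edgeR). It passed the threshold without janus-2 replicate 1 (-2.71, adjusted p = 0.000290 from edgeR) and without Col-0 replicate 1 (-1.79, adjusted p = 3.2e-05 from edgeR), and with upper-quartile factors (-1.48, adjusted p = 0.00256) and all aligned reads (-1.49, adjusted p = 0.00196). The value was -0.49 without janus-2 replicate 2 and -0.19 without Col-0 replicate 2, neither past the threshold.

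miR396 represses GRF factors of cell proliferation, and miR394 represses LCR, an F-box protein of the shoot meristem. miR396b-5p had 2796 and 1634 CPM in janus-2 against 3239 and 4123 CPM in Col-0, a log2 fold change of -0.73 ± 0.41 (SE, edgeR adjusted p = 0.120). It was past the threshold without janus-2 replicate 1 (-1.19, adjusted p = 0.0486 from edgeR), without Col-0 replicate 1 (-0.89, adjusted p = 0.00808), with upper-quartile factors (-1.03) and with all aligned reads (-1.07). miR396a-5p was not called (-0.30), and its other arm miR396a-3p was lower, with 106 and 81.9 CPM in janus-2 against 198 and 310 CPM in Col-0, a log2 fold change of -1.44 ± 0.40 (SE, edgeR adjusted p = 0.0168), lost without janus-2 replicate 2 (-1.27, adjusted p = 0.0654 from edgeR).

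For miR394a the Col-0 libraries differed from each other more than the genotypes did. It had 270.0 and 676 CPM in janus-2 against 2203 and 302 CPM in Col-0, so that Col-0 replicate 1 had 7.30 times the level of Col-0 replicate 2, and miR394b-5p shares its reads. The log2 fold change of -1.40 ± 1.33 (SE, edgeR adjusted p = 0.213) became 0.67 without Col-0 replicate 1, -2.25 (adjusted p = 6.5e-08 from edgeR) without Col-0 replicate 2 and -2.30 (adjusted p = 0.00382 from edgeR) without janus-2 replicate 2. It also passed the threshold with upper-quartile factors (-1.84, adjusted p = 0.000395 from edgeR) and all aligned reads (-1.89, adjusted p = 6.1e-05 from edgeR). Over the 36 groups that averaged 100 CPM or more, the median distance between the replicates of a genotype was 0.24 on the log2 scale in janus-2 and in Col-0, with maxima of 1.32 in janus-2 and 2.87 in Col-0, which is that of miR394a.

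The arms of a hairpin were also set side by side. Of 35 hairpins with an entry for each arm, 30 had both arms tested. Both arms were lower in 1 of these, miR171a, the other arm alone was called in 9, the guide alone in 5, and neither in 15, and no hairpin had its arms called in opposite directions. Only 1 arm was called in 46.7% of the 30, against 32.3% of all 62 hairpins of the table with both arms tested. With hairpins that share the reads of both arms taken once, these shares were 42.9% of 28 and 30.5% of 59. A call on 1 arm alone does not show that the arms differ, and 3 of the 5 hairpins with the guide alone are of miR166, whose calls depend on the scaling. The ratio of the other arm to the guide lay below the Col-0 ratios in both janus-2 libraries in 6 hairpins, above them in 7, and overlapped them in 17. Ratios without overlap thus made up 43.3% of these hairpins, near the 45.2% of all 62 hairpins of the table with both arms tested. With hairpins that share the reads of both arms taken once, it was 12 of 28, and the change of the ratio was not tested. In miR156b the other arm had 79.4% and 80.2% of the guide counts in janus-2 against 5.94% and 4.14% in Col-0. In miR156a, whose guide counts are the same reads, it had 0.25% and 0.41% in janus-2 (3 and 4 counts) against 1.47% and 1.67% in Col-0. The guide of these hairpins cannot be assigned to one of them, so that the ratios of miR156a, miR156b and miR156c share a denominator. The other arm of miR157a, also that of miR157b, had 13.2% and 15.2% of the guide counts in janus-2 against 2.02% and 2.74% in Col-0, and that of miR159b had 5.66% and 5.46% in janus-2 against 14.6% and 19.99% in Col-0. In miR172b the 5p arm exceeded the guide in every library, by 42.1 and 62.0 times in janus-2 against 120 and 118 times in Col-0, which rest on guide counts of 30 to 57.

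**Figure D4:**
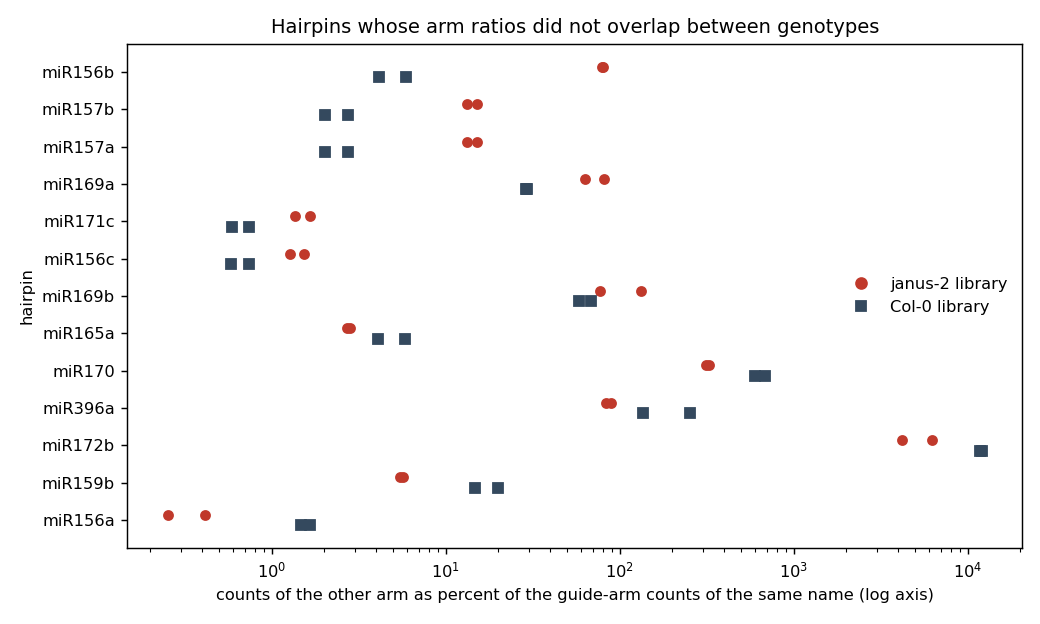
Counts of the other arm as a percent of the guide counts of the same hairpin (horizontal, log axis) for the 13 hairpins whose ratios did not overlap between genotypes (vertical), with a symbol per library and janus-2 above Col-0. The janus-2 symbols of miR156b lie near 80% and those of Col-0 near 5%, and the order is turned round in the 6 lowest hairpins.

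The 9 entries that did not pass the filter were miR156f-3p, miR156i, miR156j, miR167c-3p, miR169f-3p, miR169j, miR169n, miR172e-3p and miR394b-3p. miR156i had no count in any library. The highest value of any of the 9 was 11.7 CPM, that of miR167c-3p in Col-0 replicate 2, and their changes were not tested. Entries averaging 100 CPM or more numbered 56, with 9 lower and 8 higher, and 38 tested entries lay under that level, with 2 lower and 3 higher. That is 16.1% lower and 14.3% higher in the upper class, where all miRNAs had 16.9% and 17.8%, and 5.26% lower and 7.89% higher in the lower class, where all miRNAs had 12.4% and 18.3%.

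The target genes were measured in the mRNA libraries, and their list was drawn up from general knowledge of the families. Of 69 listed genes 66 were tested. With a fold of 1.5 or more required beside the adjusted p, 23 (34.8%) were higher and 14 (21.2%) were lower in janus-2, where 18.5% of all tested genes were higher and 27.2% were lower. DUO1 and MYB120, among the 14 lower genes, passed the filter on low counts through the Col-0 libraries alone. The median log2 fold change was 0.26 for the targets and -0.019 for all genes. SPL4 (0.59) and SPL6 (-0.58) stood at the fold threshold, with HAM1 (0.58) just outside it.

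**Figure D5:**
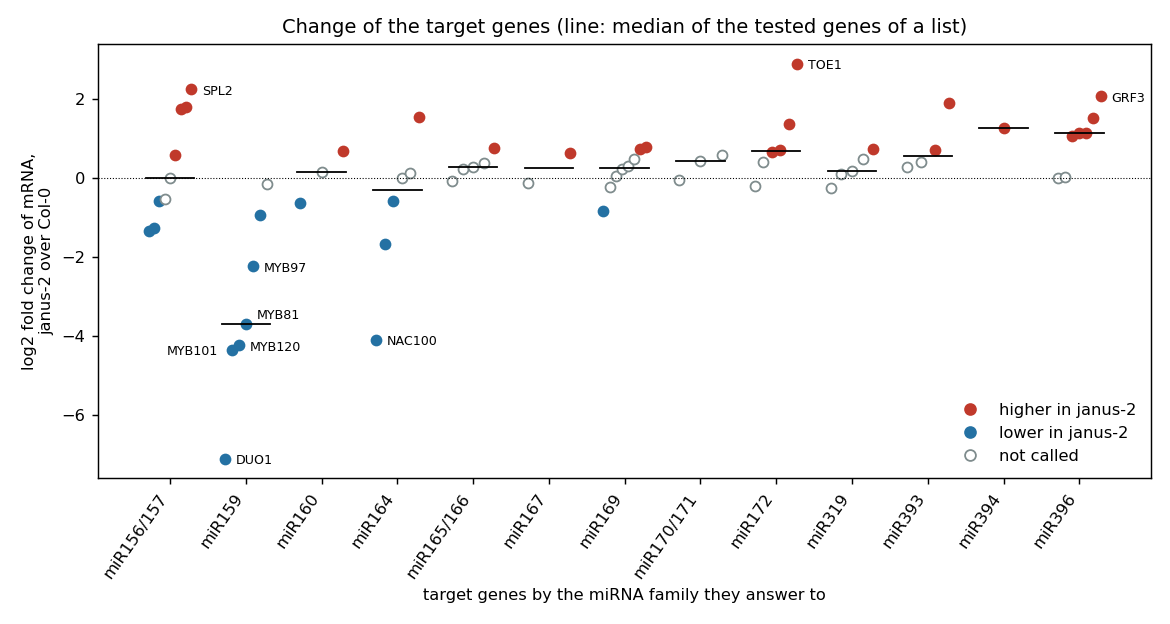
Log2 fold change of mRNA, janus-2 over Col-0 (vertical axis), of the 66 tested target genes by the family that targets them (horizontal axis), filled where called, with a line at the median of each list. The miR396, miR393, miR394 and miR172 lists have no gene called lower, and 6 of the 7 miR159 targets are called lower, down to -7.11.

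Targets of families whose guide was lower were not uniform. ARF6, a miR167 target, had 477 and 486 CPM in janus-2 against 313 and 311 CPM in Col-0 (0.63, and 0.56, under the fold threshold, with upper-quartile factors), while ARF8, the other target of miR167, had 197 and 198 CPM against 211 and 215 CPM (-0.11, not called). Of the 3 HAIRY MERISTEM genes 0 were called by edgeR and 0 by DESeq2, with 2 at an unadjusted p under 0.05, as were 83.7% of all tested genes, and HAM1 had 73.0 and 74.6 CPM in janus-2 against 49.1 and 49.7 CPM in Col-0.

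Lists whose guide was not called lower under TMM with all 4 small RNA libraries held several higher genes, where 18.5% of all tested genes were higher. The guides miR396b-5p, miR394a and miR393a-5p were called lower in some alternatives, as given above. In the miR396 list 5 of 7 GRF genes were higher, with GRF3 at 185 and 184 CPM in janus-2 against 44.9 and 43.3 CPM in Col-0 (2.07) and GRF1, GRF2, GRF7 and GRF8 between 1.07 and 1.52. Among the miR172 targets 4 of 6 were higher, with TOE1, a repressor of flowering, at 26.5 and 26.4 CPM in janus-2 against 3.18 and 3.88 CPM in Col-0 (2.90), SNZ at 1.38, TOE2 at 0.70 and AP2 at 0.65 (0.58, under the fold threshold, with upper-quartile factors). LCR, the miR394 target, had 72.6 and 73.5 CPM in janus-2 against 30.7 and 29.9 CPM in Col-0 (1.27). Of the miR393 targets the auxin receptors AFB1 (1.90) and AFB2 (0.72) were higher, and of the miR319 targets TCP10 (0.73). ATHB8 (0.76) was higher among the targets of miR165 and miR166, of which the miR166 guide was itself called higher under TMM.

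The SPL genes were split. SPL2 had 442 and 441 CPM in janus-2 against 92.7 and 92.7 CPM in Col-0 (2.25), and SPL13A (1.76) and SPL13B (1.79), near-identical copies between which reads may be divided, were also higher. SPL11 (-1.35) and SPL15 (-1.25) were lower, and SPL10 was not called (0.012). SPL3 and SPL5 did not pass the filter and had at most 2 counts in any library. Of the miR160 targets ARF16 was higher (0.69) and ARF10 lower (-0.64). The miR164 list held CUC1 (1.56) as higher and NAC100 (-4.10), NAC080 (-1.67) and NAC1 (-0.59) as lower, with NAC1 under the fold threshold without janus-2 replicate 1 (-0.40) or Col-0 replicate 2 (-0.49). The miR169 list held NF-YA2 (0.78) and NF-YA6 (0.73) as higher and NF-YA10 (-0.83) as lower.

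The miR159 targets were the list with most lower genes, 6 of 7 tested (85.7%), where 27.2% of all tested genes were lower. Of these, DUO1 and MYB120 (1 and 4 counts in janus-2 against 39 and 61 in Col-0) passed the filter on low counts through the Col-0 libraries alone. The count of lower genes in this list thus depends on the filter. MYB101, a regulator of the pollen tube, had 3.40 and 2.95 CPM in janus-2 against 65.9 and 63.4 CPM in Col-0 (-4.34), and MYB97 (-2.23), MYB120 (-4.24), MYB81 (-3.70) and MYB65 (-0.94) were lower as well. DUO1, the regulator of sperm cell formation, had 1 count in the janus-2 libraries together against 173 in those of Col-0, which is 0.582% of the Col-0 level (95% exact interval 0.0146% to 3.28%, for counting error only). MYB33, the widely expressed member, was not called (-0.14). Markers of pollen moved in the same direction over the same libraries, 12 of 12 lower with summed levels of 67.7 to 71.3 CPM in janus-2 against 4143 to 4145 CPM in Col-0, and their part in these values was not tested.

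Of 16 listed genes of miRNA processing and action, 0 passed both thresholds in edgeR or in DESeq2, while 15 had an unadjusted p under 0.05, or 93.8% against the 83.7% of all tested genes. With no fold threshold 11 of the 16 were higher and 4 were lower, against 9324 and 9778 of the 22990 tested genes. AGO1, which binds the guides, had 232 and 231 CPM in janus-2 against 339 and 341 CPM in Col-0 (-0.55), and DCL1 had 59.2 and 60.7 CPM against 76.1 and 79.2 CPM (-0.37). SERRATE, a partner of DCL1, had 132 and 126 CPM against 86.9 and 88.3 CPM (0.56), and HYL1 (0.54) and TGH (0.54) were near it.

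Reads on the MIR genes themselves were few in the mRNA libraries, and 14 of 66 listed genes of the families were tested, of which 8 were lower and 2 were higher. That is 57.1% lower and 14.3% higher, against 27.2% and 18.5% of all tested genes. MIR166f, MIR394b, MIR171a and MIR156c (9 and 2 counts in janus-2 against 40 and 49 in Col-0) passed the filter on low counts through the Col-0 libraries alone. The share of lower genes thus depends on the filter, and no result about these genes as a set was drawn from it. MIR167a had 13 and 10 counts in janus-2 against 47 and 32 counts in Col-0 (-1.77), MIR172b had 4 and 10 against 46 and 48 counts (-2.72), and MIR171a had 3 and 5 against 16 and 22 counts (-2.20, and -1.83, adjusted p = 0.0524 from edgeR, without janus-2 replicate 1). MIR156c (-2.98), MIR394b (-2.78), MIR171b (-1.04, and -0.78, adjusted p = 0.115 from edgeR, without Col-0 replicate 1) and MIR159b (-0.64, and -0.57, under the fold threshold, without janus-2 replicate 1) were lower too. MIR166f had 1 count in the janus-2 libraries together against 72 in those of Col-0, which is 1.40% (95% exact interval 0.0349% to 8.04%, for counting error only). MIR167d, with 369 and 304 counts in janus-2 against 64 and 80 counts in Col-0 (2.23), and MIR157c, with 76 and 92 against 26 and 27 counts (1.67), were higher. Whether the counting used strand was not given in the sources used here, so that reads of a MIR gene and of a gene that overlaps it cannot be told apart.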

How the data were processed

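Total RNA of inflorescences was sequenced as 4 small RNA and 4 mRNA libraries (Bowtie, HTSeq and TAIR10 per the labels' processing notes). The authors deposited raw counts per mature miRNA and per gene, and per the study reads of t/r/sn/snoRNA were removed from the small RNA. The annotation and the strand setting were not given in the sources used here. Reads on no listed miRNA (96.4% to 97.1% of aligned small RNA reads) and ambiguous reads (up to 0.0825%) were not tested. They entered the library sizes only in the setting with all aligned reads. Here counts were fitted with edgeR 4.0.16 (filterByExpr, TMM, glmQLFTest) in R 4.3.3, all 4 libraries of an assay together, with Benjamini-Hochberg adjustment. The threshold was an adjusted p of 0.05 for miRNAs, with a fold of 1.5 added for genes. Standard errors are those of DESeq2 1.42.0. With 2 libraries against 2, an exact two-sided permutation test of a single value cannot go below 0.333, so none was used. Replicates are described as biological. In simulated counts edgeR recovered 36 of 40 changed miRNAs with 0 false calls among 302 tested, and 200 of 200 changed genes with 8 false calls among 22780 tested, all changed by 2 on the log2 scale. The simulation drew each entry independently with the same spread for all entries of an assay, and changed only entries above a minimum mean count. It held no shared reads and no spread particular to an entry, so it does not give the rate of false calls in the real libraries. Named are, in each family, the most abundant entry on each arm and every called entry, and in each gene list the called genes or else the most abundant one, with further members added after their values were seen. Members, gene lists and arms were chosen with earlier results of these data known. Symbols are those of RefSeq (TAIR10.1), which matched 28009 of 28775 genes. Alternatives changed the scaling, the tool, the filter, the collapsing of identical entries, the fold threshold, a block for the replicate number, and the libraries used, each being left out in turn. Mature and precursor sequences were not analysed here.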

Additional observations from a re-analysis of the deposited data

How the results depend on the processing

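With TMM, 11 entries were lower and 11 higher. Upper-quartile factors gave 21 lower and all aligned reads 33, and the number higher was 4 with DESeq2's size factors, table totals, upper-quartile factors and all aligned reads, and 3 in DESeq2's test. On the guide arm, 10 were lower with upper-quartile factors and 18 with all aligned reads, and 0 were higher with each of the 4 scalings and in DESeq2's test. On the other arm, 11 and 15 were lower with upper-quartile factors and all aligned reads. The median log2 fold change of the entries was -0.16, -0.33 and -0.36 with table totals, upper-quartile factors and all aligned reads, and with the last 2 of these it was -0.30 and -0.34 on the guide arm and -0.69 and -0.71 on the other arm. Leaving out each library in turn gave 10 to 17 entries lower and 3 to 14 higher, with 4 to 10 and 0 to 10 on the guide arm and 5 to 11 and 3 to 4 on the other arm. Of the 11 lower entries 7 and of the 11 higher 3 were called without janus-2 replicate 2. For target genes, 37 were higher with no fold threshold, against 23.

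Replicate numbers are shared by the genotypes but nothing says that they pair the libraries, and deviations of equally numbered libraries correlated at -0.15 in small RNA and -0.015 in mRNA. With a replicate block, 8 entries were lower, 4 higher and 0 of the guide arm higher, miR171a-5p had an adjusted p of 0.0563 and miR169b-5p of 0.0633 in edgeR, and 14 target genes were lower and 22 higher.

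Signs changed only in entries not called, apart from miR166a-3p (-0.065 with upper-quartile factors, -0.086 with all aligned reads). In the same order of these 2 settings the values were -0.021 and -0.062 for miR157c-3p, -0.048 and -0.076 for miR159a, -0.36 and -0.41 for miR160c-5p, -0.11 and -0.13 for miR160c-3p, -0.29 and -0.32 for miR164b-3p, -0.16 and -0.18 for miR165b, -0.23 and -0.23 for miR166b-5p, and -0.31 and -0.34 for miR319a. With table totals they were -0.16 for miR160c-5p, -0.15 for miR164b-3p, -0.0019 for miR165b, -0.079 for miR166b-5p and -0.14 for miR319a. DESeq2's size factors and its test gave -0.085 and -0.085 for miR160c-5p, -0.052 and -0.052 for miR164b-3p, and -0.052 and -0.052 for miR319a. Collapsing identical entries gave 0.053 for miR170-3p. Over the fits leaving out a library the values ran from -0.029 to 0.52 for miR157c-3p, -0.60 to 1.08 for miR160c-5p, -0.16 to 0.16 for miR164b-3p, -0.15 to 0.38 for miR166b-5p, -0.21 to 0.034 for miR170-3p, -0.22 to 0.34 for miR319a, -1.42 to 0.77 for miR393a-5p and -2.30 to 0.67 for miR394a. The cause of these changes was not tested.

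Precision is limited by 2 libraries per genotype and a coefficient of variation of 25.5% between small RNA replicates. Entries of few counts, among them miR156a-3p, miR169b-5p and the miR172a guide (at most 57 counts in any library), cannot show small differences. Shared reads make sums over entries exceed the reads.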
